A study of Mus musculus with 24 samples.

Results

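Gsdmd, which encodes the pore-forming protein gasdermin D, and 7 genes of apoptosis and its control, Bax, Bak1, Bcl2l1, Casp8, Casp9, Trp53 and Cdkn1a, were followed by genotype in testis germ cells of Ddx4 knock-in mice. Ddx4 encodes a DEAD-box RNA helicase of germ cell granules. These genes are 8 out of 55364 genes in the round spermatid tables and 55401 in the CB tables. They were named by symbol as cell death genes, and Gsdmd was selected on its measured level, which was higher in homozygotes. Its homozygous values are therefore given as a description with no test, and the values of the other 7 genes were tested. All 8 genes were listed in every library, and all 8 passed the filter on low counts in both kinds of RNA.

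Round spermatid RNA came from homozygous knock-in, heterozygous knock-in and wild-type mice (n = 2 libraries each). CB RNA came from homozygous and heterozygous knock-in mice (n = 3 libraries each), and wild-type CB RNA was not analysed here. The labels do not spell out CB and give the cells of these libraries only as germ cells. They do not describe the knock-in allele beyond Ddx4, nor say that the numbered libraries of a group came from separate animals. A p-value here therefore speaks only of the scatter among these libraries, and that scatter may be technical. Library totals were 15.3 to 24.9 M counts for round spermatids and 14.2 to 16.5 M for CB. The round spermatid libraries used 1 kit and the CB libraries another, strand-specific one without polyA selection, so levels are compared between genotypes only within a kind of RNA.

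Ddx4 itself stood at 121 and 129.5 CPM (counts scaled to a common effective library size) in homozygous round spermatids, against 406 and 403 CPM in heterozygous and 443 and 521 CPM in wild-type ones. In CB RNA it stood at 303, 306 and 244 CPM in homozygotes and 277, 312 and 365 CPM in heterozygotes, so these groups overlapped. A pair of libraries stood apart from the rest of their groups. Wild-type round spermatid library 1 gave 0.627% of its counts to Prm1, a protamine gene of late spermatids, against 0.128% in wild-type library 2. CB heterozygous library 1 had the lowest summed level of spermatocyte markers, 781 CPM, against up to 1406 CPM in its group. The defining markers of round spermatids were all detected in the libraries labelled as such, with summed levels of 5345 to 9598 CPM over 10 genes.

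Cell death by these genes runs along a few routes. Gasdermin D is cut by inflammatory caspases, and its freed N-terminal part opens pores in the plasma membrane, a lytic death called pyroptosis that is best known from macrophages. In apoptosis, BAX and BAK open the outer mitochondrial membrane unless held back by BCL2 relatives such as BCL-XL, the product of Bcl2l1. Released cytochrome c then activates caspase-9, while death receptors act through caspase-8. The transcription factor p53, the product of Trp53, induces Cdkn1a, which encodes a cyclin-dependent kinase inhibitor. In the testis, loss of germ cells by apoptosis is a normal part of spermatogenesis.

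**Figure D1:**
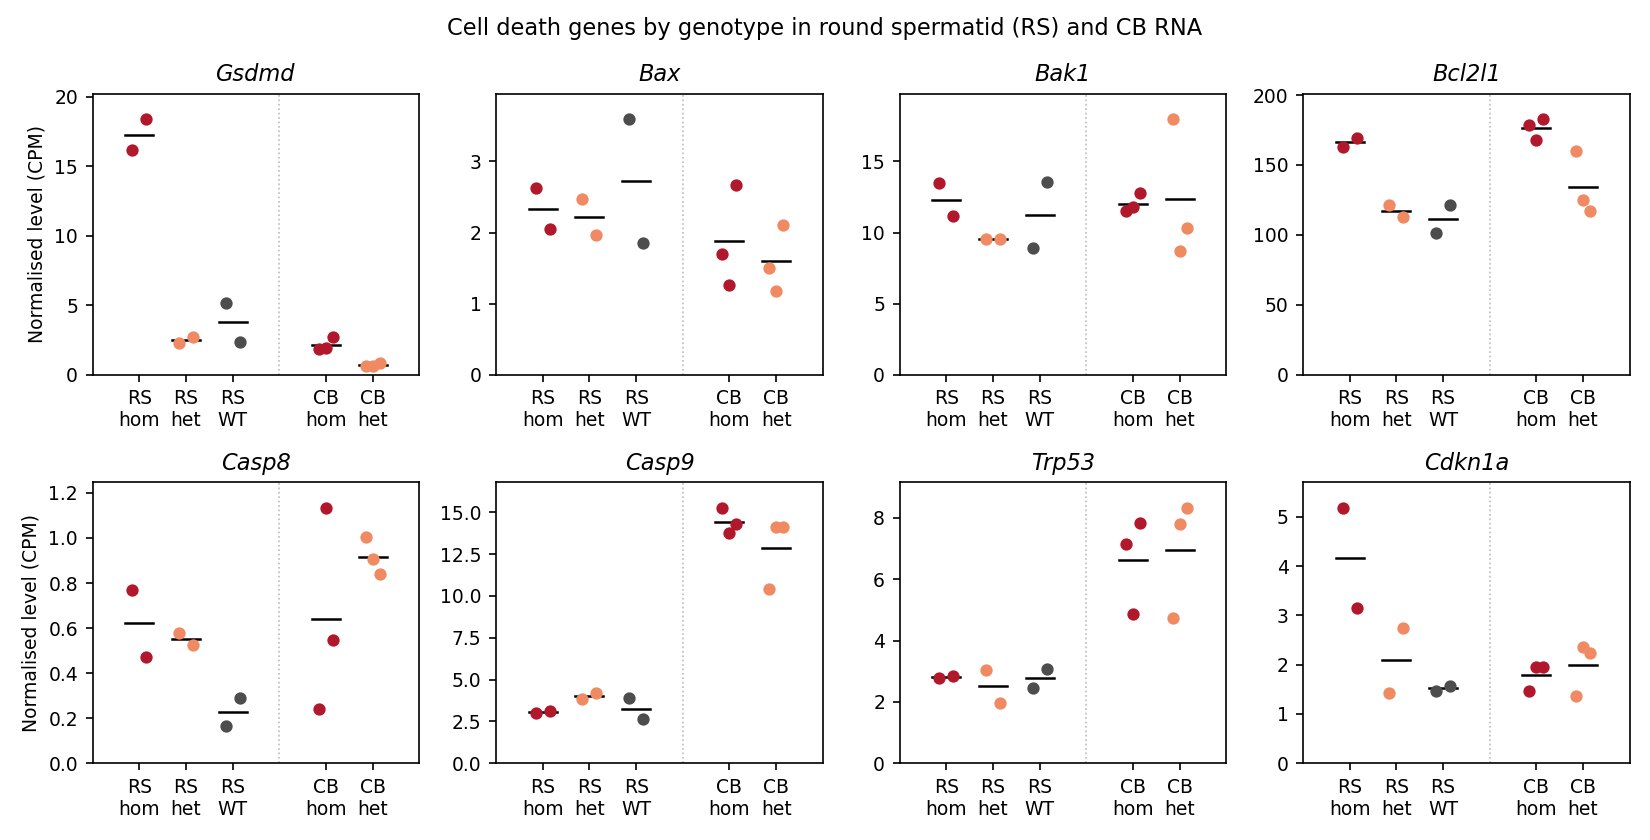
Normalised level in CPM (linear axis from 0) of each of the 8 genes, with 1 point per library and a bar at the group mean, for homozygous (hom), heterozygous (het) and wild-type (WT) round spermatids (RS) and for homozygous and heterozygous CB RNA. Gsdmd stands at 16.1 and 18.4 CPM in homozygous round spermatids and at no more than 5.18 CPM in the other round spermatid libraries, and Bcl2l1 is the other gene whose homozygous libraries all lie above the rest in both kinds of RNA.

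Gsdmd (ENSMUSG00000022575, chromosome 15, 75862144 to 75867408 in GRCm38.p6) had 314 and 351 reads in the homozygous round spermatid libraries, against 43 and 41 in the heterozygous and 95 and 58 in the wild-type libraries. As normalised levels these were 16.1 and 18.4 CPM in homozygotes, 2.26 and 2.69 CPM in heterozygotes and 5.18 and 2.39 CPM in wild type. Both homozygous libraries lay above all 4 others, and the heterozygous and wild-type libraries overlapped. The homozygous mean of 17.3 ± 1.60 CPM was 4.57 times the wild-type mean of 3.78 ± 1.97 CPM and 6.98 times the heterozygous mean of 2.47 ± 0.30 CPM (SD, n = 2 each). Both ratios share the homozygous libraries. In RNA of many cells, more cells of a type and more RNA per cell cannot be told apart, and this holds for every level given here.

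The fitted log2 difference of Gsdmd was 2.21 (SE 0.356) between homozygous and wild-type round spermatids, and 2.81 (SE 0.374) between homozygous and heterozygous ones. The value against wild type depended on which wild-type library was used, at 2.85 with library 1 of wild type left out and 1.75 with library 2 left out. Heterozygotes against wild type differed by -0.60 (SE 0.382), and edgeR's quasi-likelihood test with Benjamini-Hochberg adjustment gave an adjusted p of 0.521. Which of these groups the choice of Gsdmd set against homozygotes is not known, so this test may not be free of that choice. Without wild-type library 2 the difference of heterozygotes from wild type was -1.06, and without wild-type library 1 it was 0.04.

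In CB RNA Gsdmd was sparse, with 30, 30 and 45 reads in the homozygous libraries and 9, 9 and 12 in the heterozygous ones. Its levels were 1.82, 1.89 and 2.73 CPM in homozygotes, against 0.645, 0.626 and 0.841 CPM in heterozygotes. All 3 homozygous libraries lay above all 3 heterozygous libraries. The homozygous mean of 2.15 ± 0.508 CPM was 3.05 times the heterozygous mean of 0.704 ± 0.119 CPM (SD, n = 3 each), a fitted log2 difference of 1.60 (SE 0.326). Whether the CB values had entered the choice of Gsdmd is not known, so no test is given for them either.

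Reads of Gsdmd fell mostly on 1 of its 6 listed isoforms, ENSMUST00000023238, of 1792 bases. Its share of the expected counts was 97.8% in homozygous, 89.7% in heterozygous and 93.9% in wild-type round spermatids, with the libraries of a group pooled. In CB RNA the share was 89.1% in homozygotes and 74.8% in heterozygotes, which held only 30.01 expected counts in all. The deposited isoform percentages, which are per transcript and corrected for length, put the same isoform at 91.5%, 70.4% and 84.5% in homozygous, heterozygous and wild-type round spermatids. The isoform with the most reads was thus the same in every group.

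Gsdmd overlaps no other gene, and none lies within 1 kb of it, in the RefSeq annotation. Within 50000 bases on either side 9 genes are annotated, of which 5 could be tested in round spermatids and 4 in CB RNA. EdgeR called none of these neighbours in homozygotes against wild type, where their log2 differences ran from -0.59 to 0.29, or against heterozygotes, where they ran from -0.90 to 0.03. In CB RNA they ran from -0.26 to 0.72, again with none called.

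The genes whose pattern over the 12 libraries was most like that of Gsdmd were sought among 13760 genes by the root mean square difference of centred log2(CPM + 1) values. They were Meox1, which encodes a homeobox transcription factor (0.216), Rps3, which encodes a ribosomal protein (0.253), and the uncharacterised genes 4933404I11Rik (0.258), 4933408J17Rik (0.263) and 4930444F02Rik (0.268). Meox1 averaged 14.9 CPM in homozygous, 2.34 CPM in heterozygous and 2.52 CPM in wild-type round spermatids. In CB RNA it averaged 2.17 CPM in homozygotes and 0.966 CPM in heterozygotes. The choice of these genes fixes their homozygous pattern, and 3 of the 5 were also among the nearest 5 with a pseudocount of 0.25 in place of 1.

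Gsdmd is a gene of macrophages, so the macrophage markers are set beside it. Their summed level over 12 genes was 45.1 to 47.2 CPM in homozygous, 34.3 to 34.9 CPM in heterozygous and 21.7 to 24.6 CPM in wild-type round spermatids. The CB sum was 26.8 to 31.2 CPM in homozygotes and 17.5 to 26.7 CPM in heterozygotes. No marker was at 0 in all libraries of a group. All 12 had a positive log2 difference between homozygous and wild-type round spermatids, with a median of 1.22 against -0.00 over all genes tested. By edgeR, 2 of the 12 passed there, where 2.86% of all genes did, Cd74, the invariant chain of antigen presentation (log2 1.72, adjusted p = 0.0135), and Lyz2, a lysozyme gene (log2 1.71, adjusted p = 0.0222), and Cd74 also passed in CB RNA (log2 1.59, adjusted p = 0.0343). Against wild type 8 of the 12 had an unadjusted edgeR p under 0.05, as had 22.7% of all genes. Against heterozygotes, where the Gsdmd difference was larger, none of the 12 passed by edgeR or DESeq2. There 3 had an unadjusted p under 0.05, as had 16.7% of all genes. The median there was 0.27, with 10 of the 12 positive and Csf1r (log2 -0.51) and Ptprc (log2 -0.20) negative. In CB RNA 9 of the 10 tested were positive (median 0.30), and 2 had an unadjusted p under 0.05, as had 14.5% of all genes. The summed level was higher in heterozygous than in wild-type round spermatids, while Gsdmd was not, as the plot of Gsdmd beside these markers shows. The part of the macrophage markers in the Gsdmd difference was not tested.

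**Figure D2:**
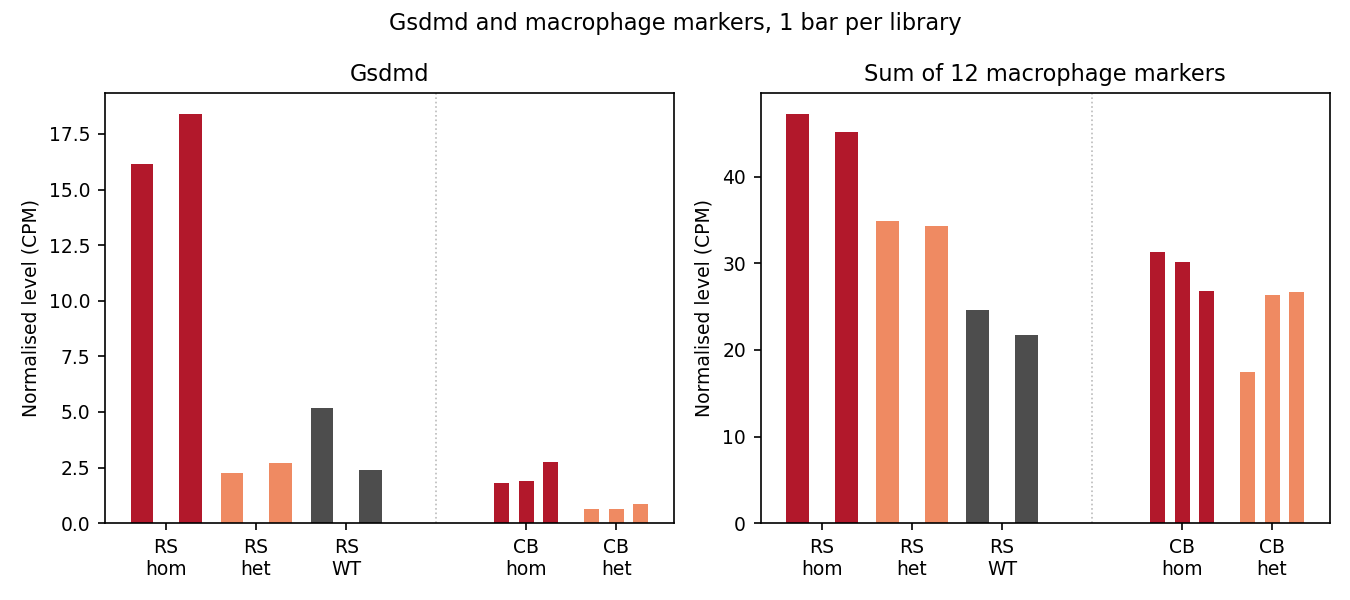
Normalised level in CPM (linear axes from 0) of Gsdmd, left, and of 12 macrophage markers summed, right, with 1 bar per library, in homozygous (hom), heterozygous (het) and wild-type (WT) round spermatid (RS) RNA and in homozygous and heterozygous CB RNA. The marker sum runs from 45.1 to 47.2 CPM in homozygous, 34.3 to 34.9 CPM in heterozygous and 21.7 to 24.6 CPM in wild-type round spermatids, while heterozygous Gsdmd, 2.26 and 2.69 CPM, overlaps wild type, 5.18 and 2.39 CPM.

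Summed levels of markers of other testis cells also differed between genotypes. The Leydig cell markers summed to 15.3 to 16.5 CPM in homozygous, 8.25 to 9.93 CPM in heterozygous and 5.51 to 8.01 CPM in wild-type round spermatids, and to 163 to 173 CPM in homozygous and 90.1 to 147 CPM in heterozygous CB RNA. The round spermatid sum was mostly Insl3, a hormone gene, with 13.3 and 12.9 CPM in homozygotes, 6.83 and 6.35 CPM in heterozygotes and 5.50 and 3.45 CPM in wild type. Of the 7 Leydig markers 4 could be tested there. Insl3 (log2 1.55, edgeR adjusted p = 0.0344) and Hsd3b1 (log2 1.01, edgeR adjusted p = 0.342) were higher in homozygotes than in wild type. Star (log2 -0.01) and Cyp17a1 (log2 -0.34) were not. EdgeR called 2.39% of all genes higher there. The Sertoli cell markers ran the other way in round spermatids, with 29.9 to 30.3 CPM in homozygotes, 51.9 to 52.7 CPM in heterozygotes and 50.1 to 65.6 CPM in wild type. Against wild type 1 of the 8 tested was higher in homozygotes. EdgeR called 2 lower, Aard (log2 -1.44, adjusted p = 0.0359) and Clu (log2 -0.84, adjusted p = 0.0365), where it called 0.472% of all genes lower. The peritubular and vascular markers summed to 162 to 163 CPM in homozygous, 248 to 255 CPM in heterozygous and 268 to 272 CPM in wild-type round spermatids, and to 46.0 to 49.8 CPM in homozygous and 52.4 to 59.6 CPM in heterozygous CB RNA. The round spermatid sum was mostly Actg2, a smooth muscle actin gene, with means of 129 CPM in homozygotes, 227 CPM in heterozygotes and 252 CPM in wild type. In CB RNA Actg2 averaged 17.5 CPM in homozygotes and 32.9 CPM in heterozygotes. Actg2 fell in homozygotes in all 3 comparisons, with log2 changes of -0.96 against wild type, -0.81 against heterozygotes and -0.91 in CB RNA (edgeR adjusted p = 0.0145, 0.0285 and 0.00562). The median log2 of the tested markers was 0.44 against wild type (4 of 6 positive), 0.26 against heterozygotes (4 of 6) and 0.49 in CB RNA (4 of 7). Acta2, another smooth muscle actin gene, and Dcn, which encodes the matrix protein decorin, rose against wild type (log2 1.53 and 0.96, edgeR adjusted p = 0.0449 and 0.0358). The late spermatid markers summed to 8338 to 8491 CPM in homozygous, 9439 to 9626 CPM in heterozygous and 9510 to 16464 CPM in wild-type round spermatids. All 6 log2 differences from wild type were negative (median -0.40), with none called by edgeR and 1 by DESeq2, which called 1287 of 17809 genes. Of the 6, 5 had an unadjusted p under 0.05, as had 22.7% of all genes. The CB sums were 1086 to 1113 CPM in homozygous and 1810 to 2057 CPM in heterozygous libraries. All 6 were lower in homozygous CB RNA at an unadjusted p under 0.05, as were 14.5% of all genes in either direction. EdgeR called 3 of the 6 there, where 0.559% of all genes were called lower. They were Prm1 (log2 -1.27, adjusted p = 0.0216), Odf1 (log2 -0.83, adjusted p = 0.0297) and Oaz3 (log2 -0.84, adjusted p = 0.0344). Of the 10 round spermatid markers 1 was higher in homozygous CB RNA. EdgeR called 1 of these 10 lower, Spaca1 (log2 -0.49, adjusted p = 0.0431). The part of these cells in the values of the 8 genes was not tested.

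Of the apoptosis genes, none of the 7 passed in homozygous against wild-type round spermatids by edgeR's quasi-likelihood test with Benjamini-Hochberg adjustment over 17809 genes. The share of all genes called there was 2.86% (2.39% higher and 0.472% lower). Of the 7, 3 genes (Bcl2l1, Casp8 and Cdkn1a) had an unadjusted p under 0.05, as had 22.7% of all genes. DESeq2 called 1 of the 7, Bcl2l1, and 1287 of all 17809 genes. Against heterozygotes none of the 7 passed, with 1.73% of all genes called (1.36% higher and 0.371% lower), 2 of the 7 (Bcl2l1 and Cdkn1a) under an unadjusted p of 0.05, as were 16.7% of all genes, and none called by DESeq2. In heterozygotes against wild type none of the 8 passed, none was under an unadjusted p of 0.05, where 7.28% of all genes were, none was called by DESeq2, and edgeR called 0% of all genes.

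In CB RNA none of the 7 passed in homozygotes against heterozygotes by edgeR, with 1.72% of 19335 genes called (1.16% higher and 0.559% lower), 1 of the 7 (Bcl2l1) under an unadjusted p of 0.05, as were 14.5% of all genes, and none called by DESeq2. The plot of fitted differences shows Bcl2l1 to the right of 0 by more than its SE in all 3 comparisons with homozygotes, and Bax, Bak1, Casp9 and Trp53 scattered about 0.

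**Figure D3:**
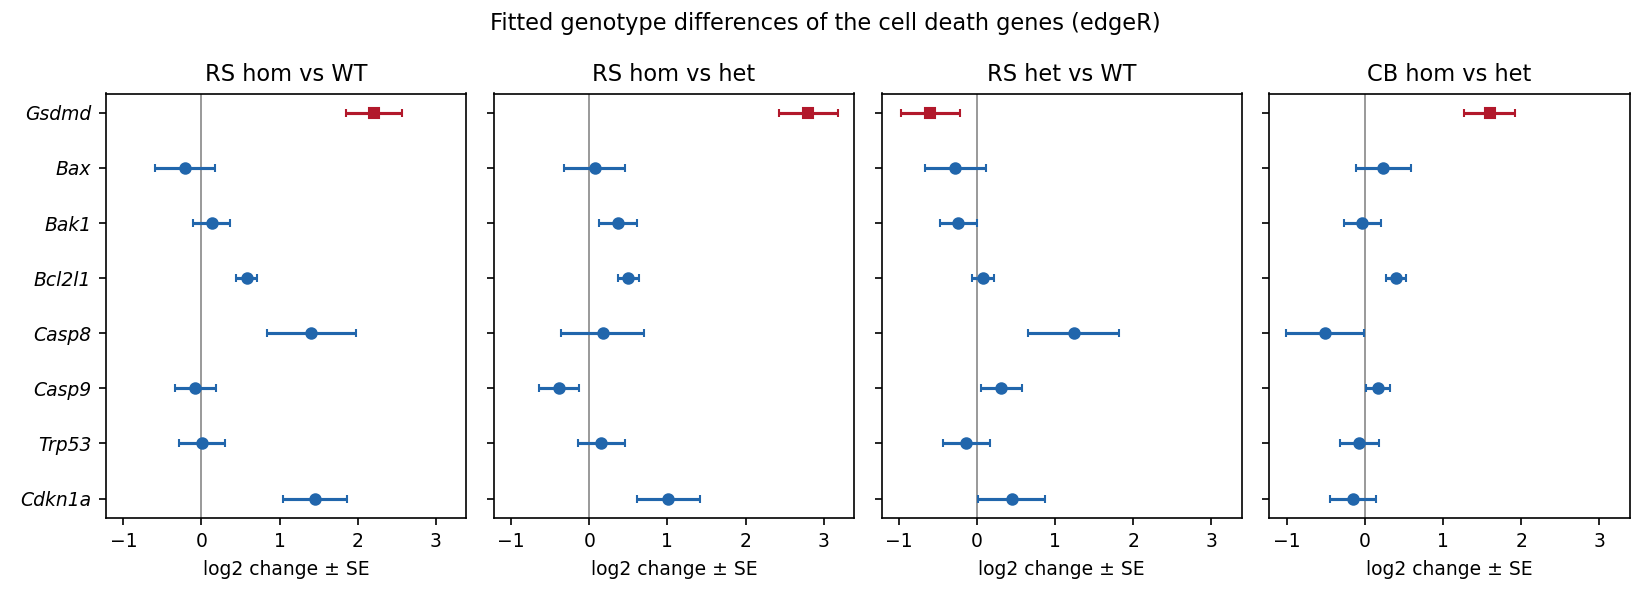
Fitted log2 difference (edgeR) of each of the 8 genes in 4 comparisons, hom vs WT, hom vs het and het vs WT in round spermatids (RS) and hom vs het in CB RNA (hom, homozygous; het, heterozygous; WT, wild type), with bars of 1 SE; squares mark Gsdmd, which was chosen for its homozygous level. Gsdmd lies at 2.21, 2.81 and 1.60 in the comparisons with homozygotes and at -0.60 in het vs WT, and Bcl2l1 lies at 0.58, 0.50 and 0.40 and at 0.08.

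Bcl2l1, which encodes the anti-apoptotic protein BCL-XL (ENSMUSG00000007659, chromosome 2, 152758732 to 152833803), was the most abundant of the 8 genes in every group. Per length it averaged 120.1 TPM in homozygous, 82.3 TPM in heterozygous and 64.8 TPM in wild-type round spermatids, and 234 TPM in homozygous and 155 TPM in heterozygous CB RNA. Its normalised level was 163 and 169 CPM in homozygous round spermatids, 122 and 113 CPM in heterozygous ones and 101 and 122 CPM in wild-type ones. Both homozygous libraries lay above all 4 others. The ratio of mean CPM was 1.49 against wild type and 1.42 against heterozygotes.

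The fitted log2 difference of Bcl2l1 in round spermatids was 0.58 against wild type (SE 0.135, edgeR adjusted p = 0.0829) and 0.50 against heterozygotes (SE 0.135, edgeR adjusted p = 0.140), and neither passed. Both calls depended on the settings. The difference from wild type passed with DESeq2 (adjusted p = 0.0408), with no filter on low counts in edgeR (adjusted p = 0.0423), and with the trend on transcript length removed in edgeR (adjusted p = 0.0149). These settings called 1287 of 17809, 1692 of 29111 and 2432 of 17809 genes. The difference was log2 0.45 without wild-type library 1 and 0.73 without library 2. Such fits leave a lone library in a group, so no p-value is given for them. Without either homozygous library the difference did not pass. The difference from heterozygotes passed in edgeR with the length trend removed (adjusted p = 0.0330, 1774 of 17809 genes called). It also passed in edgeR with only the compared groups (adjusted p = 4.16e-06, 5577 of 17293 genes called). It did not pass with DESeq2, upper-quartile factors, no filter or a replicate block. Over all 12 alternatives its log2 ran from 0.44 to 0.56.

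In CB RNA Bcl2l1 stood at 179, 168 and 183 CPM in homozygotes and 159.8, 125 and 117 CPM in heterozygotes. The 3 homozygous libraries lay above the 3 heterozygous ones, and the ratio of means was 1.32. The log2 difference of 0.40 (SE 0.126) did not pass by edgeR (adjusted p = 0.167). Without CB heterozygous library 1, the library with the low spermatocyte markers, it was 0.53. The edgeR adjusted p there was 0.000977, with 2213 of 20033 genes called. Over the other alternatives the adjusted p ran up to 0.457. The CB difference less that in round spermatids, homozygotes against heterozygotes, was -0.05 for Bcl2l1 (SE 0.213, edgeR adjusted p = 0.999).

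Reads of Bcl2l1 were split over several isoforms. The isoform ENSMUST00000007803 took 41.3% of its expected counts in homozygous, 44.2% in heterozygous and 50.8% in wild-type round spermatids, and ENSMUST00000109820 took 37.5%, 35.1% and 35.4%. In CB RNA ENSMUST00000007803 took 37.7% in homozygotes and 41.6% in heterozygotes. Shares of ENSMUST00000173755 in single round spermatid libraries did not overlap between genotypes. They were 5.02% to 5.92% in homozygotes, 1.39% to 4.56% in heterozygotes and 0% to 1.95% in wild type. In CB RNA its shares overlapped, at 6.83% to 11.6% in homozygotes and 4.35% to 7.35% in heterozygotes. The annotated spans of Cox4i2 and the pseudogene Gm32211 overlap that of Bcl2l1, and whether their exons do was not examined. Cox4i2 had at most 5 reads in any library and did not pass the filter on low counts.

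Bax and Bak1 encode the effectors that BCL-XL restrains. Bax (ENSMUSG00000003873, chromosome 7, 45461695 to 45466903) stood at 2.62 and 2.04 CPM in homozygous, 2.47 and 1.96 CPM in heterozygous and 3.60 and 1.85 CPM in wild-type round spermatids. These ranges overlapped, and the log2 differences of homozygotes were -0.21 against wild type (SE 0.382, edgeR adjusted p = 0.769) and 0.07 against heterozygotes (SE 0.390, edgeR adjusted p = 0.956). In CB RNA Bax stood at 1.70, 1.26 and 2.67 CPM in homozygotes and 1.50, 1.18 and 2.10 CPM in heterozygotes, and the log2 difference was 0.24 (SE 0.352, edgeR adjusted p = 0.820). With 17 to 66 reads a library, Bax carried a wide error.

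Bak1 (ENSMUSG00000057789, chromosome 17, 27019812 to 27028627) stood at 13.5 and 11.2 CPM in homozygous, 9.51 and 9.56 CPM in heterozygous and 8.88 and 13.6 CPM in wild-type round spermatids. Both homozygous libraries lay above the heterozygous ones and within the wild-type range. The log2 differences were 0.37 against heterozygotes (SE 0.240, edgeR adjusted p = 0.515) and 0.13 against wild type (SE 0.237, edgeR adjusted p = 0.771). The size and sign of the latter turned on the wild-type library kept, at 0.48 when only library 1 stood for wild type and -0.14 when only library 2 did. No p-value is given for these fits, since each rests on a lone wild-type library. In CB RNA Bak1 stood at 11.5, 11.8 and 12.8 CPM in homozygotes and 18.0, 8.70 and 10.3 CPM in heterozygotes, the highest value coming from CB heterozygous library 1. Bak1 lies within Ggnbp1, a germ cell gene on the opposite strand whose homozygous log2 difference from wild type was -0.33 (edgeR adjusted p = 0.217), and since the round spermatid counting is not stated to use strand, reads from any exon that they share could not be told apart.

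The balance of the BCL2 relatives can be set as the ratio of Bcl2l1 to the sum of Bax and Bak1 in TPM, a measure chosen after the values were seen and given with no test. It was 8.83 and 12.03 in homozygous, 6.54 and 8.60 in heterozygous and 5.03 and 7.02 in wild-type round spermatids. Both homozygous libraries were above the other 4, by a small margin for homozygous library 1. In CB RNA it was 12.6, 13.7 and 9.89 in homozygotes and 8.96, 12.5 and 9.05 in heterozygotes, and these overlapped.

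Among the initiator caspases, Casp8 (ENSMUSG00000026029, chromosome 1, 58795233 to 58847503), which acts below death receptors, was at the edge of detection with 3 to 18 reads in every library. It stood at 0.771 and 0.472 CPM in homozygous, 0.578 and 0.524 CPM in heterozygous and 0.163 and 0.288 CPM in wild-type round spermatids. Both knock-in groups lay above wild type and overlapped each other. The log2 differences from wild type were 1.40 in homozygotes (SE 0.570, edgeR adjusted p = 0.216) and 1.23 in heterozygotes (SE 0.584, edgeR adjusted p = 0.519). In CB RNA the levels were 0.243, 1.14 and 0.547 CPM in homozygotes and 1.00, 0.905 and 0.841 CPM in heterozygotes, with a log2 difference of -0.52 (SE 0.498, edgeR adjusted p = 0.707). None of these differences passed, on counts this low.

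Casp9 (ENSMUSG00000028914, chromosome 4, 141793612 to 141815978), the caspase of the apoptosome, stood at 2.98 and 3.14 CPM in homozygous, 3.84 and 4.19 CPM in heterozygous and 3.87 and 2.63 CPM in wild-type round spermatids. The homozygous libraries lay below the heterozygous ones and within the wild-type range. The log2 differences were -0.39 against heterozygotes (SE 0.260, edgeR adjusted p = 0.528) and -0.08 against wild type (SE 0.261, edgeR adjusted p = 0.883). In CB RNA Casp9 stood at 15.3, 13.7 and 14.3 CPM in homozygotes and 10.4, 14.1 and 14.2 CPM in heterozygotes, where only heterozygous library 1 was low. The log2 difference was 0.16 (SE 0.152, edgeR adjusted p = 0.694). One end of Casp9 overlaps Cela2a, an elastase gene on the opposite strand.

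Trp53 (ENSMUSG00000059552, chromosome 11, 69580348 to 69591873) stood at 2.77 and 2.83 CPM in homozygous, 3.05 and 1.96 CPM in heterozygous and 2.45 and 3.08 CPM in wild-type round spermatids. In CB RNA it stood at 7.16, 4.86 and 7.84 CPM in homozygotes and 4.73, 7.79 and 8.34 CPM in heterozygotes. The groups overlapped throughout. The log2 differences of homozygotes were 0.01 against wild type (SE 0.294, edgeR adjusted p = 0.984), 0.15 against heterozygotes (SE 0.299, edgeR adjusted p = 0.856) and -0.07 in CB RNA (SE 0.247, edgeR adjusted p = 0.934).

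One isoform of Trp53, picked out after the shares of the listed isoforms were seen, did not overlap between the CB groups. How often isoforms of other genes stand apart in this way was not counted. ENSMUST00000147512, a listed isoform of 3275 bases, took 18.0% of the expected counts in homozygous CB RNA, at 15.6% to 19.7% in single libraries, against 30.6% in heterozygous CB RNA, at 29.1% to 35.1%. The deposited isoform percentages, corrected for length, put it at 10.2% in homozygotes and 18.8% in heterozygotes. The leading isoform, ENSMUST00000108658, took 64.8% in homozygotes and 60.2% in heterozygotes. Assignment of short reads to isoforms is an estimate, and no test was made of it.

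Cdkn1a (ENSMUSG00000023067, chromosome 17, 29090979 to 29100722), the p53 target that encodes a cell cycle inhibitor, stood at 5.19 and 3.14 CPM in homozygous, 1.42 and 2.75 CPM in heterozygous and 1.47 and 1.56 CPM in wild-type round spermatids. Both homozygous libraries lay above all 4 others, with homozygous library 2 close to heterozygous library 2. The ratio of means was 2.75 against wild type and 2.0 against heterozygotes. The log2 differences, 1.45 against wild type (SE 0.408, edgeR adjusted p = 0.118) and 1.01 against heterozygotes (SE 0.405, edgeR adjusted p = 0.283), did not pass. The difference from wild type passed in edgeR with no filter (adjusted p = 0.0231, 1692 of 29111 genes called). It also passed in edgeR with the length trend removed (adjusted p = 0.0416, 2432 of 17809 genes called). It did not pass with DESeq2, upper-quartile factors, a replicate block or only the compared groups. Over all 12 alternatives its log2 ran from 1.05 to 1.77. The difference from heterozygotes passed in edgeR with only the compared groups (adjusted p = 0.0210, 5577 of 17293 genes called). It did not pass with DESeq2, upper-quartile factors, no filter, the length trend removed or a replicate block. It was 0.60 without homozygous library 1 or heterozygous library 1, and 1.54 without heterozygous library 2.

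In CB RNA Cdkn1a stood at 1.46, 1.95 and 1.94 CPM in homozygotes and 1.36, 2.37 and 2.24 CPM in heterozygotes, and the groups overlapped (log2 -0.16, SE 0.296, edgeR adjusted p = 0.862). The CB difference less that in round spermatids was -1.12 (SE 0.503) with an edgeR adjusted p of 0.547. That test called 0.209% of 22002 genes (0.0636% higher and 0.145% lower) and none of the 7 apoptosis genes, with 1 of them, Cdkn1a, at an unadjusted p under 0.05, as were 8.9% of all genes, and none called by DESeq2.

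The isoform make-up of Cdkn1a, likewise picked out after the shares were seen, also stood apart in homozygous round spermatids. The isoform ENSMUST00000023829, of 1913 bases, took 37.4% of its expected counts in homozygotes, against 75.2% in heterozygotes and 61.4% in wild type. The shorter ENSMUST00000119901, of 922 bases, took 43.6% in homozygotes, 16.6% in heterozygotes and 16.5% in wild type. In single libraries the share of the shorter isoform ran from 37.9% to 46.9% in homozygotes, 0% to 27.2% in heterozygotes and 6.45% to 30.6% in wild type. Its share in CB RNA was 0% in homozygotes and 8.44% in heterozygotes, the opposite order. The round spermatid shares rest on 161, 69 and 65.01 expected counts in homozygotes, heterozygotes and wild type.

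**Figure D4:**
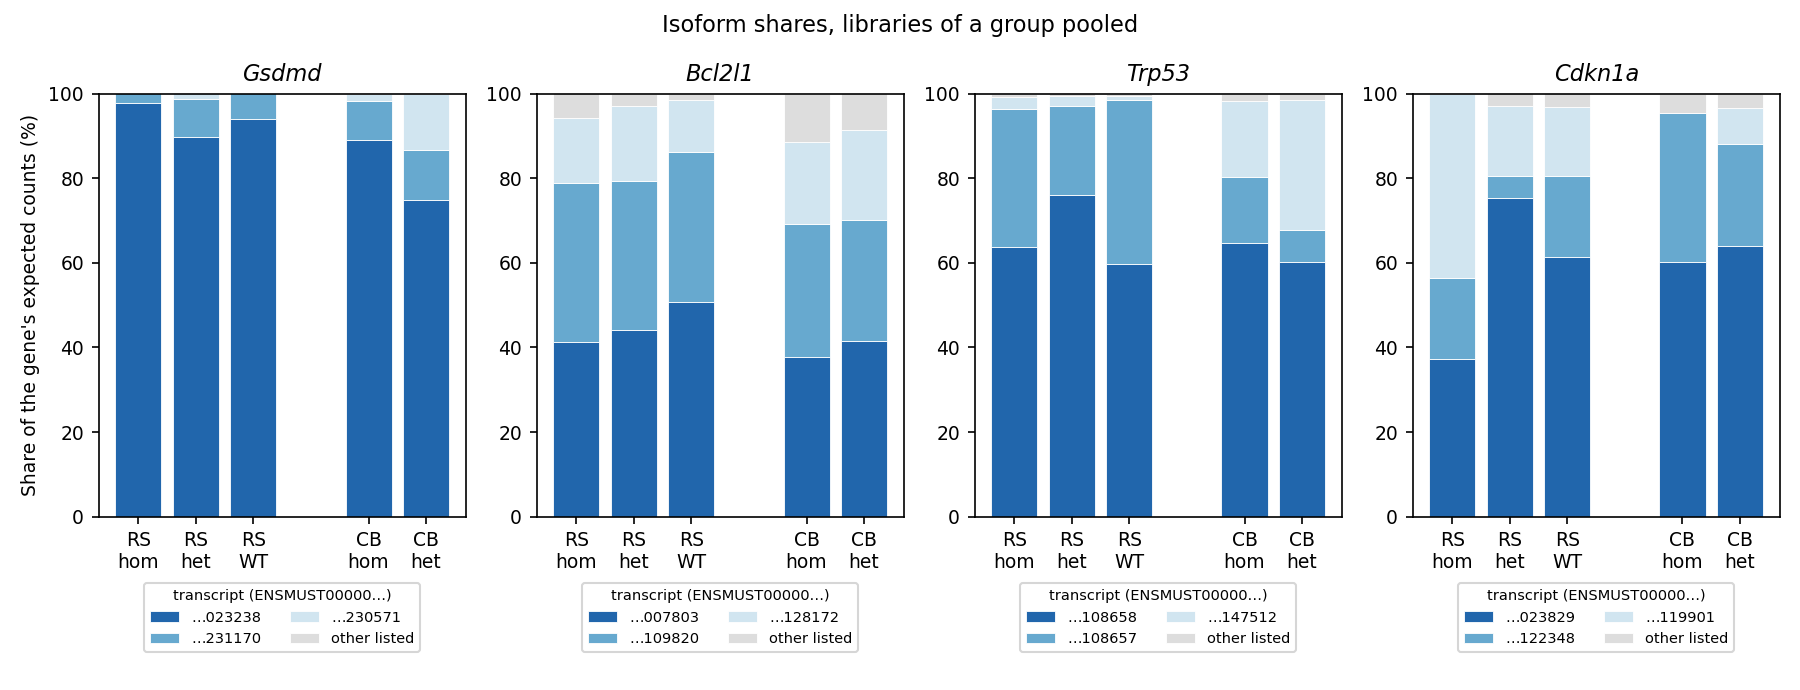
Share of the expected counts of Gsdmd, Bcl2l1, Trp53 and Cdkn1a on each of their 3 leading isoforms and on the remaining listed ones, in percent (axis from 0), with the libraries of a group pooled, for homozygous (hom), heterozygous (het) and wild-type (WT) round spermatids (RS) and homozygous and heterozygous CB RNA. ENSMUST00000119901 of Cdkn1a takes 43.6% in homozygous, 16.6% in heterozygous and 16.5% in wild-type round spermatids.

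Counted by libraries that do not overlap, 3 of the 7 apoptosis genes (Bcl2l1, Casp8 and Cdkn1a) had both homozygous round spermatid libraries above both wild-type ones and none had both below, where 26.7% of all genes tested had both above and 25.0% both below. Against heterozygotes 3 genes (Bak1, Bcl2l1 and Cdkn1a) were above and Casp9 was below, where the shares over all genes were 32.6% and 32.0%. In heterozygotes against wild type Casp8 alone was above, and none was below, where the shares over all genes were 22.5% and 22.1%. In CB RNA Bcl2l1 alone was above and none was below, where the shares were 11.5% and 9.78%.

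The order of the 8 genes by TPM was led by Bcl2l1 in all 5 groups. Gsdmd was in place 2 in homozygous round spermatids at 14.95 ± 0.834 TPM, above Bak1 at 7.11 ± 0.841 TPM with no overlap of libraries (SD, n = 2 each). In heterozygous and wild-type round spermatids it was in place 4, at 2.65 ± 0.714 and 3.02 ± 1.50 TPM. There it overlapped its lower neighbour, Cdkn1a in heterozygotes and Trp53 in wild type, and in wild type also Bax above it. In CB RNA it was in place 6 in homozygotes at 3.76 ± 0.668 TPM and in place 7 in heterozygotes at 1.32 ± 0.504 TPM (SD, n = 3 each). There it overlapped Bax and Cdkn1a in homozygotes and Casp8 in heterozygotes. Casp8 was the lowest in all 5 groups.

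The other genes of these pathways were taken from 9 lists. Their counts at an unadjusted p under 0.05 are to be read beside the shares of all genes there, 22.7% against wild type, 16.7% against heterozygotes and 14.5% in CB RNA. EdgeR calls are to be read beside 2.86%, 1.73% and 1.72% of all genes in the same order. DESeq2 calls are to be read beside 1287 and 796 of 17809 genes in round spermatids and 598 of 19335 in CB RNA. Of the other gasdermins 4 of 9 could be tested in round spermatids and 3 in CB RNA, and edgeR and DESeq2 called none in homozygotes in any of the 3 comparisons, with an unadjusted p under 0.05 for 1 gene against wild type, 1 against heterozygotes and 0 in CB RNA. Gsdma, an epidermal gasdermin, was at 12.3 ± 0.355 CPM in homozygous, 7.53 ± 1.21 CPM in heterozygous and 8.83 ± 0.919 CPM in wild-type round spermatids (SD, n = 2 each), a log2 difference from wild type of 0.48 (SE 0.185, edgeR adjusted p = 0.201). Gsdme, which executioner caspases cut, was at 7.69 ± 0.453 CPM in homozygous and 9.93 ± 1.98 CPM in heterozygous CB RNA (SD, n = 3 each), a log2 difference of -0.37 (SE 0.174, edgeR adjusted p = 0.371).

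The inflammasome list holds genes upstream of gasdermin D and others, such as cytokine genes. Of its 17 genes, 6 could be tested in round spermatids and 8 in CB RNA. EdgeR and DESeq2 called none in the 3 comparisons with homozygotes, with 1, 0 and 2 genes at an unadjusted p under 0.05 against wild type, against heterozygotes and in CB RNA. Il1b, which encodes the cytokine interleukin-1 beta, was at 2.18 ± 0.410 CPM in homozygous, 1.53 ± 0.154 CPM in heterozygous and 1.06 ± 0.276 CPM in wild-type round spermatids, a log2 difference from wild type of 1.05 (SE 0.344, edgeR adjusted p = 0.157). Among genes for caspases that cut gasdermin D, Casp1 and Casp4 were named after their values were seen. Casp1 had 17 and 12 reads in homozygous, 21 and 9 in heterozygous and 20 and 16 in wild-type round spermatids, and Casp4 had at most 2 reads in any of the 12 libraries. The 2 genes in CB RNA were Casp1 (log2 -1.18, edgeR adjusted p = 0.241) and Il1a (log2 -0.70, edgeR adjusted p = 0.205). The list's median log2 was -0.00 against wild type and 0.19 against heterozygotes, with 3 of 6 positive in each, and -0.30 in CB RNA, with 2 of 8 positive.

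Birc2, which encodes the ubiquitin ligase and apoptosis inhibitor cIAP1, was the one gene of the 9 lists that edgeR called higher in all 3 comparisons with homozygotes. Of all genes edgeR called 2.39% higher against wild type, 1.36% against heterozygotes and 1.16% in CB RNA. The share of all genes called higher in all 3 was not counted. Birc2 stood at 155 and 156 CPM in homozygous, 73.2 and 71.3 CPM in heterozygous and 71.5 and 71.5 CPM in wild-type round spermatids, and both homozygous libraries lay far above the other 4. The log2 change was 1.12 against wild type (SE 0.112, edgeR adjusted p = 0.0119) and 1.11 against heterozygotes (SE 0.112, edgeR adjusted p = 0.0217). In CB RNA Birc2 stood at 177, 170 and 149 CPM in homozygotes and 108, 108 and 125 CPM in heterozygotes, without overlap, a log2 change of 0.54 (SE 0.110, edgeR adjusted p = 0.0385).

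The size of the Birc2 change was steady over the alternatives, at 0.97 to 1.13 against wild type, 1.05 to 1.15 against heterozygotes and 0.49 to 0.61 in CB RNA, but the edgeR call was not. Against wild type it was lost without either homozygous library (adjusted p = 0.204 and 0.203), without either heterozygous one (0.0837 and 0.0851) and with only the compared groups in the fit (0.0804). Against heterozygotes the adjusted p without single homozygous or heterozygous libraries was 0.284 to 0.351. In CB RNA the call was kept under 3 of 11 alternatives, DESeq2 (0.00287), no filter (0.00194) and without heterozygous library 1 (0.0061).

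**Figure D5:**
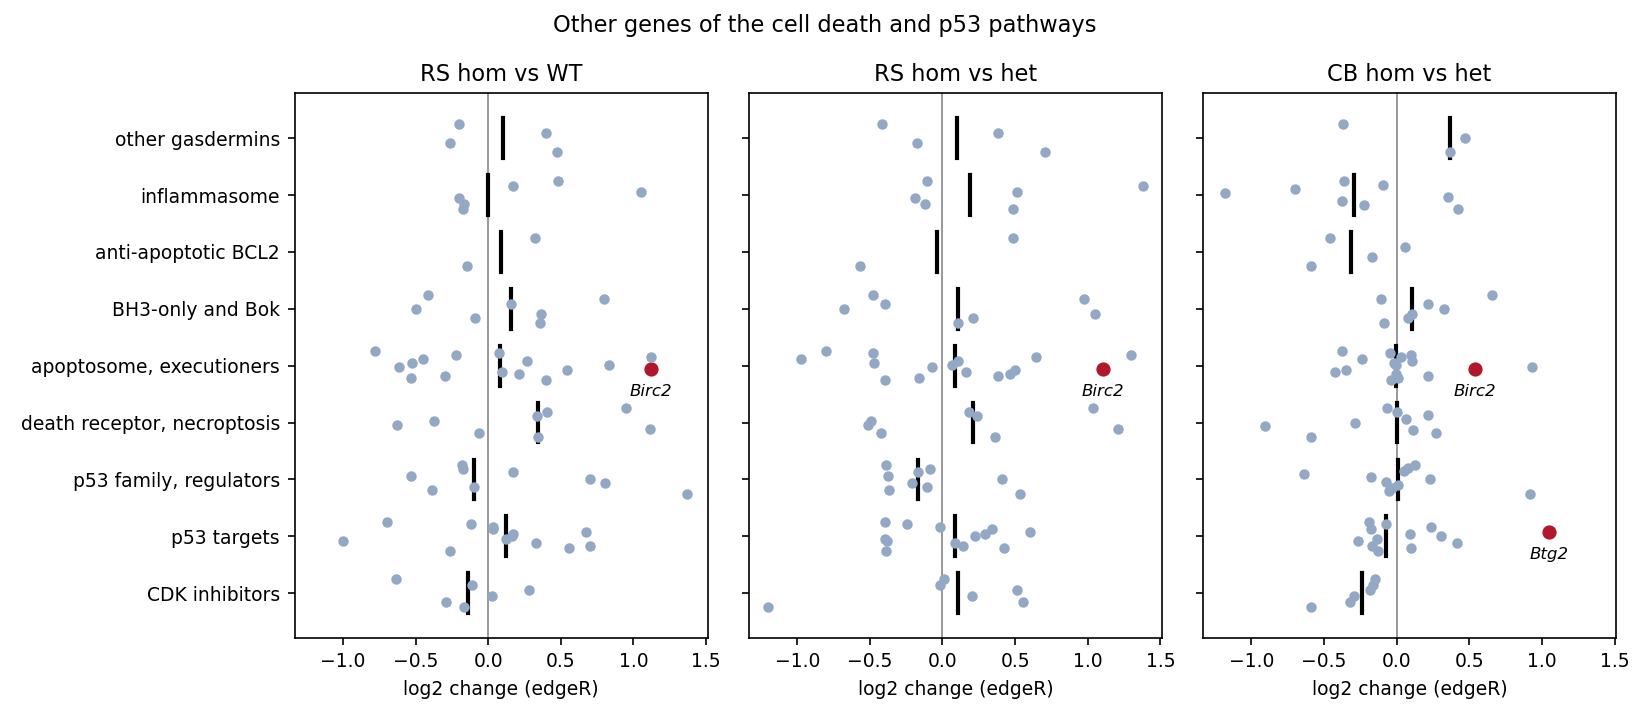
Fitted log2 differences (edgeR) of the genes of 9 pathway lists in homozygous (hom) against wild-type (WT) and against heterozygous (het) round spermatids (RS) and in hom against het CB RNA; each point is a tested gene, large red points passed at an adjusted p under 0.05, and black bars are list medians. Birc2 at 1.12, 1.11 and 0.54 and Btg2 at 1.05 in CB RNA are the points that passed.

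The apoptosome and executioner list that holds Birc2 had 16 of 17 genes tested. Birc2 was the only one called by edgeR, and 1 was called by DESeq2, in each of the 3 comparisons. The list's median log2 was 0.08 against wild type, 0.09 against heterozygotes and -0.01 in CB RNA, beside -0.00 over all genes tested in each. The anti-apoptotic BCL2 relatives other than Bcl2l1 had 2 of 6 genes tested in round spermatids and 4 in CB RNA, with none called by edgeR or DESeq2 and 0, 1 and 0 at an unadjusted p under 0.05. Mcl1, whose protein holds back BAK, was at 136 ± 8.92 CPM in homozygous, 97.1 ± 2.66 CPM in heterozygous and 109 ± 14.9 CPM in wild-type round spermatids, with log2 differences of 0.49 against heterozygotes (SE 0.141, edgeR adjusted p = 0.158) and 0.32 against wild type (SE 0.141, edgeR adjusted p = 0.234).

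The BH3-only genes and Bok, which favour death, had 7 of 9 genes tested and none called by edgeR or DESeq2, with 1, 1 and 0 at an unadjusted p under 0.05 against wild type, against heterozygotes and in CB RNA. Their median log2 was 0.16, 0.11 and 0.11 in the same order. Bcl2l11, which encodes BIM, was at 6.88 ± 0.867 CPM in homozygous, 3.32 ± 0.0634 CPM in heterozygous and 5.40 ± 3.46 CPM in wild-type round spermatids, a log2 difference of 1.05 against heterozygotes (SE 0.447, edgeR adjusted p = 0.313).

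Of the death receptor and necroptosis list, 8 of 12 genes were tested in round spermatids and 9 in CB RNA. EdgeR called none in homozygotes, and 2, 2 and 0 had an unadjusted p under 0.05 in the same order of comparisons. DESeq2 called 1 against wild type, 1 against heterozygotes and 0 in CB RNA. The median log2 was 0.34 against wild type, 0.21 against heterozygotes and 0.00 in CB RNA. Mlkl, the pore-forming effector of necroptosis, stood at 11.3 and 11.3 CPM in homozygous, 5.26 and 5.76 CPM in heterozygous and 6.59 and 5.14 CPM in wild-type round spermatids. Both homozygous libraries lay above the other 4, and the log2 differences of 0.95 against wild type (SE 0.190) and 1.04 against heterozygotes (SE 0.192) did not pass by edgeR, with adjusted p of 0.0580 and 0.0606. In CB RNA Mlkl stood at 3.82, 4.22 and 3.52 CPM in homozygotes and 3.37, 4.66 and 4.06 CPM in heterozygotes, which overlapped.

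Regulators of p53 had 9 of 11 genes tested in round spermatids and 11 in CB RNA, with none called by edgeR or DESeq2 and 5, 2 and 1 at an unadjusted p under 0.05, where 22.7%, 16.7% and 14.5% of all genes were. Their median log2 was -0.10, -0.17 and 0.01. Ppm1d, a phosphatase that shuts p53 signalling off, was at 676 ± 5.32 CPM in homozygotes, 717 ± 1.68 CPM in heterozygotes and 764 ± 45.2 CPM in wild type (round spermatids, SD, n = 2 each), a log2 difference from wild type of -0.18 (SE 0.0949, edgeR adjusted p = 0.318).

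Targets of p53 other than Cdkn1a had 13 of 15 genes tested in both kinds of RNA. None was called in round spermatids by edgeR or DESeq2, with 2 and 0 at an unadjusted p under 0.05 against wild type and against heterozygotes. In CB RNA Btg2, which encodes an antiproliferative protein, rose, and it was also the 1 gene of the list that DESeq2 called. Btg2 stood at 8.49, 9.33 and 9.96 CPM in homozygotes and 3.01, 5.43 and 4.97 CPM in heterozygotes, without overlap, a log2 change of 1.05 (SE 0.215, edgeR adjusted p = 0.0389). Over the alternatives the edgeR or DESeq2 adjusted p ran from 5.02e-05 to 0.178, and the call was lost without any single CB library other than heterozygous library 1. In homozygous round spermatids the log2 difference of Btg2 was 0.68 against wild type and 0.60 against heterozygotes (edgeR adjusted p = 0.200 and 0.324). The median log2 of the list was 0.12, 0.09 and -0.08.

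The other cyclin-dependent kinase inhibitors, 6 of 6 tested, had none called by edgeR in homozygotes, and 1, 0 and 0 had an unadjusted p under 0.05. DESeq2 called 1 against wild type and 0 in the other comparisons. Cdkn2d was at 22.7 ± 2.26 CPM in homozygous, 22.5 ± 0.887 CPM in heterozygous and 35.3 ± 3.0 CPM in wild-type round spermatids. Its log2 difference from wild type was -0.64 in homozygotes (SE 0.152, edgeR adjusted p = 0.0856) and -0.65 in heterozygotes (SE 0.152, edgeR adjusted p = 0.519).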

How the data were processed

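For each RNA library the authors deposited a gene table and an isoform table with expected counts, TPM and, per isoform, the percent of the gene (IsoPct), per the file headers. The columns are laid out as by RSEM. The aligner and the counting tool were not given in the sources used here. Per the submitters' processing notes, Trim Galore was used and the build was mm10. The deposited expected counts were rounded to whole numbers. The deposited TPM values, per transcript length, were used to order genes by level, and the deposited isoform percent values beside shares of expected counts. The 12 small RNA libraries were not used here. Symbols were found for all but 260 genes, and positions are those of RefSeq GRCm38.p6.

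Genes were tested with edgeR 4.0.16 in R 4.3.3 (quasi-likelihood F test, TMM factors, filterByExpr, Benjamini-Hochberg adjustment over all genes, threshold 0.05), with 6 libraries per fit and 12 for the difference between kinds of RNA, and tried on simulated data. The SE is the log2 difference divided by the square root of F. Alternatives were DESeq2 1.42.0, upper-quartile factors, no filter, removal of the length trend, a replicate block, fits of the compared groups alone and leaving out each library. CPM is scaled to TMM library sizes. Named were all 8 genes, from each list the genes called (at most 4) or else the 2 of highest TPM, of which the text gives some, and the 5 nearest to Gsdmd. Members and lists were chosen with earlier results of these data known. All pairs of libraries of a group differed by more than counting noise (lowest chi-square per degree of freedom 2.47).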

Additional observations from a re-analysis of the deposited data

Results flagged for a closer look

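The genotype effect on Ddx4 differed between the kinds of RNA. The homozygous log2 difference from heterozygotes was -0.16 in CB RNA and -1.69 in round spermatids, and the difference between these in a joint fit of all 12 libraries, 1.59 (SE 0.224), passed the interaction test of edgeR (adjusted p = 0.0122). Over the alternatives it was 1.41 to 1.69, with adjusted p from 1.53e-09 to 0.156. Kit, input and labelled cells differ between the kinds of RNA as well and cannot be told apart from it. None of the 7 apoptosis genes passed this test, and groups of 2 or 3 libraries are too small for a check of outlying samples.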

How the results depend on the processing

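Called genes in homozygous against wild-type round spermatids numbered 510, and 1287 with DESeq2, 1692 with no filter, 2432 with the length trend removed, 15 with only the compared groups and 0 to 8488 leaving out single libraries. The share of higher genes among them was 83.5%, and 64.1% with DESeq2, 57.98% with no filter and 56.2% with the length trend removed. Against heterozygotes 308 became 796, 912, 1774, 5577 and 0 to 5608 in the same order. In heterozygotes against wild type 0 became 5 with DESeq2, 6 with no filter and 0 to 7901 leaving out single libraries. In CB RNA 332 became 598, 882 and 51 to 2213, and for the difference between kinds of RNA 46 became 144, 191, 95 with the length trend removed and 2 to 188. The number of the 7 apoptosis genes called against wild type, 0, became 1 with DESeq2, 2 with no filter, 2 with the length trend removed and 0 to 3 leaving out single libraries. Against heterozygotes it became 1 with the length trend removed, 2 with only the compared groups and 0 to 2, and it was 0 to 1 in heterozygotes against wild type and in CB RNA. Where a lone library was left in a group, it was taken to vary like the others. The highest counts came without wild-type library 2 against wild type (8488 and 7901), without wild-type library 1 for homozygotes against heterozygotes (5608) and without CB heterozygous library 1 (2213), and the counts of 0 for homozygotes came without either homozygous library, or against heterozygotes also without either heterozygous one. The cause of these shifts was not tested.

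Replicate numbers are shared between groups, but the labels tie them to nothing. The correlation of deviations of libraries with the same number was 0.15 for homozygotes with wild type, -0.02 with heterozygotes and -0.14 for heterozygotes with wild type, and -0.00, -0.20 and -0.14 in CB RNA, where no library correlated best with its own number. With the number as a replicate block the called genes were 182, 12, 0 and 163 and 2 for the difference between kinds of RNA, and none of the 7 apoptosis genes was called. Birc2 lost its call under the block against heterozygotes (adjusted p = 0.0627) and in CB RNA (0.124).

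The log2 difference of Gsdmd in homozygotes kept its sign under all 52 alternatives, at 1.75 to 2.85 against wild type, 2.68 to 2.92 against heterozygotes, 1.39 to 1.73 in CB RNA and -1.36 to -1.01 for the CB less the round spermatid difference. Of 446 alternatives for the other 7 genes 19 passed and 32 changed sign. The passes include fits with a lone library in a group. The sign for Bak1 in homozygotes against wild type turned on the wild-type library kept (0.48 and -0.14). The same held for Bcl2l1 in heterozygotes against wild type (0.23 and -0.05). Low counts limit Casp8, Bax, Cdkn1a and the CB values of Gsdmd.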
